A study of Mus musculus with 2 samples.

Results

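Splice junctions that carry the tag A=0 and were crossed by reads in both libraries of mouse colon were described by length, strand, reads and position. A splice junction is the pair of positions that a sequencing read joins when the intron between them is missing from the RNA. The members were chosen by their tag and their read counts: A=0 in the deposited junction name, at least 5 reads in each of R1 and R2, and no base within 4 regions of the mm9 assembly. These regions are 137000000 to 138000000 on chromosome 5, 92000000 to 93000000 on chromosome 3, 114400000 to 117300000 on chromosome 12 and 67500000 to 70750000 on chromosome 6. The rule gave 8683 junctions out of 402639 in the file, or 3.49% of the 248551 with A=0. Another 1989 passed the read minimum but lay in those regions, 2 of them reaching in from outside.

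Introns are removed by the spliceosome, which recognises a 5′ splice site where the intron begins and a 3′ splice site where it ends. A gene can give more than one RNA when a neighbouring splice site is used, when an exon is skipped or when an extra exon is included. Pairs of 3′ splice sites a single codon apart are a well known form of such choice in mammals. Introns recognised by the major spliceosome nearly always begin and end with the same short sequences, and aligners use these to tell introns from other gaps.

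There were 2 libraries of 1 group, colon of C57BL/6J mice at 8 weeks of age, with no treatment. The labels say that tissue of littermates of both sexes was pooled and name a single donor record. Whether differences between R1 and R2 are technical in part was not tested. The RNA was polyadenylated, depleted of ribosomal RNA and longer than 200 nt, and stranded libraries were read from both ends at 76 nt. R1 and R2 are the read counts as the junction file gives them, and nothing in the sources ties either to a replicate number.

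The libraries differed in 2 ways that stand beside every result below. First, the deposited gene tables were read for markers, as TPM, an abundance corrected for gene length and scaled to the same total in each library. All 9 markers of colon epithelium were present, with summed levels of 17246 TPM in replicate 1 and 19908 in replicate 2. Among them Muc2, the main secreted mucin of goblet cells, stood at 8861 and 11591 TPM. The other 8 summed to 8386 and 8316 TPM, and 5 of the 9 were lower in replicate 2. The 9 markers of pancreatic acinar cells, which make digestive enzymes, had a sum of 29.5 TPM in the first replicate and 32143 in the second. Ctrb1, a chymotrypsinogen, stood at 12.5 and 12054 TPM, Cela3b, a pancreatic elastase, at 2.67 and 3527, and Ptf1a, an acinar transcription factor, at 0 and 2.25. Second, the 72 A=1 junctions of chromosome Y held 0 reads in R1 and 602 in R2, and its 23 A=0 junctions 7 and 33, although the labels give pooled sexes for both. No junction of chromosome Y was among the members.

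Neither the tags nor R1 and R2 are explained in the file, so A and C are used here as names only. The lengths of 99.9% of the 95202 A=1 junctions that pass the same read minimum outside the same regions equal that of an intron on the same chromosome and strand in GENCODE vM21. Values given below for A=1 junctions are over these 95202 unless stated otherwise. The annotation is on mm10, so lengths alone were compared and no position was carried over. For members the share was 63.1%, and short lengths can match by coincidence. Among introns of at least 10000 nt it was 14.5% of 2370 members against 99.3% of 7401 A=1 junctions. Junctions are named by mm9 position, and genes are not named because no annotation of that assembly was used here.

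Most members had few reads, and a handful held a large part of the total. The members held 608348 of the 18301894 junction reads in R1 (3.32%) and 649055 of the 19057116 in R2 (3.41%). They made up 40.5% of all A=0 reads in R1 and 35.2% in R2. The median member had 30 reads over both libraries, against 83 for A=1 junctions. Between 10 and 19 reads were found at 2574 members, at least 10000 at 10, and from 1000 to below 10000 at 154. The 10 with the most reads held 23.2% of all member reads.

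Tag C=0 marked the highest of them. On chromosome 2, 118600430 to 118603443 (plus strand, 3014 nt), 40910 reads were found in R1 and 30785 in R2. On chromosome 4, 121870932 to 122132563 (minus strand, 261632 nt), R1 held 16581 and R2 28647. The junction of 209 nt at 90586451 to 90586659 on chromosome 10 had 21969 and 21544 reads, nearly the same in both. A gap of 36 nt at 58203754 to 58203789 on chromosome 11 had 26342 in R1 and 10048 in R2. These 4, with 1 further C=0 junction of 220 nt on chromosome 7 (30043225 to 30043444, 5192 and 5305 reads), shared no end with any A=1 junction. The other 5 of the 10 had C=1, and each shared at least 1 end with one.

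Over all members, C=1 was found at 6678 (76.9%) and C=0 at 2005 (23.1%). Among A=1 junctions of any read count C=0 was rare, at 417 of 154088 (0.271%), while it was the more common tag among all A=0 junctions (68.1%). Members with C=1 and C=0 had nearly the same median reads, 30 and 31, but the C=0 group held 37.8% of the reads because of its few very high members.

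The members were next sorted by whether their ends coincide with an end of an A=1 junction on the same strand, a property that the choice of members did not use. Of 8683 members, 5164 (59.5%) shared at least 1 end. Both ends were shared by 1284 members, the 5′ end of the intron alone by 2062, the 3′ end alone by 1818, and neither end by 3519. In the C=1 group 75.7% shared an end, and in the C=0 group 5.39%, where 54 members shared the 5′ end, 54 the 3′ end and none both. Members also overlapped one another, since 2490 (28.7%) had an end in common with another member, so they are not independent events.

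**Figure D1:**
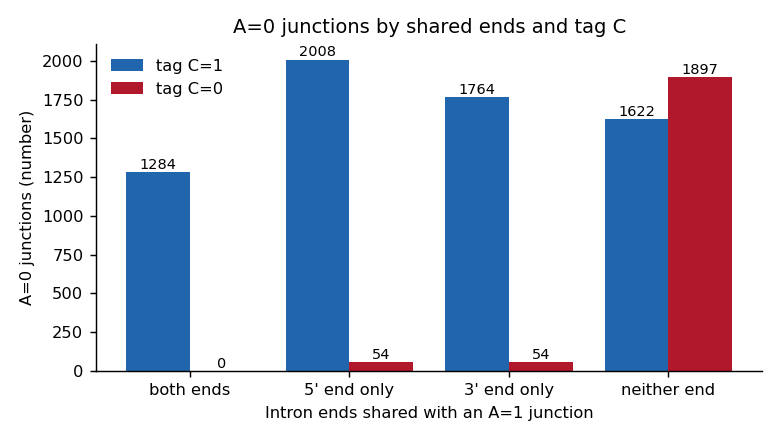
Number of A=0 junctions (vertical axis) by which ends of the intron they share with an A=1 junction (horizontal axis), for tag C=1 (blue) and C=0 (red). The C=0 members stand almost wholly in the group with no shared end (1897 of 2005), while C=1 members spread over all 4 groups.

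Members that share 1 end with an A=1 junction move the other to a different place, and small moves fell at preferred distances. With C=1, 2008 members kept the 5′ splice site and moved the 3′ one. Of these, 1106 (55.1%) moved it by no more than 100 nt from the nearest 3′ end that A=1 junctions pair with that site. A distance of exactly 3 nt, the length of a codon, was found at 310 of the 1106 (28.0%). The new end lay downstream, inside the exon, at 225 and upstream at 85. The next distances downstream were 4 nt (99 members), 5 nt (47) and 6 nt (28), while 4 nt and 5 nt upstream were found at 6 and 2. A=1 junctions compared with each other in the same way had 31.0% of their moves within 100 nt at a distance of 3 nt, 272 of them downstream and 340 upstream. A pair of A=1 junctions can be counted once from each side, which is not so for members. At 4 nt in either direction the share was 4.96% for A=1 junctions and 9.49% for members.

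At the other end of the intron the preferred distance was 4 nt. The 1764 members that kept the 3′ splice site moved the 5′ one further, with a median of 334.5 nt against 67 nt for the moved 3′ ends. Within 100 nt there were 569 (32.3%), of which 33 moved by 4 nt downstream and 28 by 4 nt upstream, together 10.7%. Moves of 3 nt were found at 11 members only. In A=1 junctions 4.69% of moves within 100 nt were of 4 nt.

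A move by a multiple of 3 nt leaves the reading frame of a coding exon as it was. Such multiples made up 52.0% of the 1106 moves at the 3′ splice site and 32.9% of the 569 at the 5′ splice site. Without the moves of 3 nt, the first share was 33.3%, where 1 length in 3 also gives 33.3%. The matching values for A=1 junctions were 59.0% and 40.3%, and 40.6% at the 3′ splice site without moves of 3 nt.

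**Figure D2:**
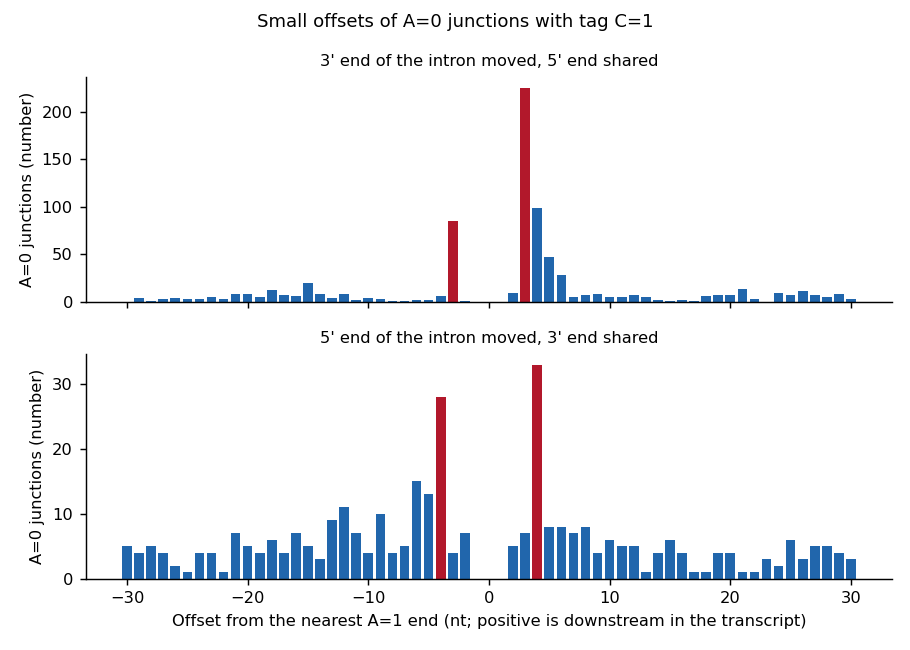
Number of A=0 junctions with C=1 (vertical axis) by the distance in nt of the moved end from the nearest A=1 end (horizontal axis, positive downstream in the transcript, 30 nt shown on each side), for moved 3′ ends above and moved 5′ ends below. Red bars mark 3 nt above (85 upstream, 225 downstream) and 4 nt below (28 upstream, 33 downstream).

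How often the moved end was used could be read against the A=1 junction nearest to it, as the member's reads over the sum of both. Over 3772 such members the median usage was 11.1% in R1 and 10.9% in R2, and 533 exceeded 50% in both libraries. Those 3 nt upstream had a median of 25.4% in R1 and 26.2% in R2, and those 3 nt downstream 18.0% and 15.6%. Moves of 4 nt had medians of 4.05% and 3.76% downstream at the 3′ splice site. All moves within 100 nt at that site, leaving out those of 3 nt, had 4.96% and 5.13%. At the 5′ splice site the medians for 4 nt were 4.38% and 3.88% downstream and 8.78% and 7.60% upstream. Its other moves within 100 nt had 7.79% and 8.20%. Usage in R1 and R2 was within 10 percentage points at 3071 of the 3772 members (81.4%). Low usage leaves little room for a wider gap, so this share says little about how alike R1 and R2 were. At the 3′ splice site it was 97.0% for moves of 4 nt downstream and 74.1% for those 3 nt upstream. Because the members had to reach a read minimum, low usage at weakly expressed sites is not seen here.

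The examples in this paragraph are those with the most reads at their distance and were chosen after their values were seen. A member on chromosome 10, 79353726 to 79354203 (plus strand), 3 nt downstream, had 1849 reads in R1 beside 1465 of its A=1 neighbour, a usage of 55.8% (95% interval 54.1 to 57.5). In R2 it had 2658 beside 2711, or 49.5% (48.2 to 50.9), so the intervals did not overlap. On chromosome 19, 6058002 to 6058245 (plus strand), also 3 nt downstream, 1758 reads in R1 and 1662 in R2 gave 61.9% (60.1 to 63.7) and 65.9% (64.0 to 67.7). The member 3 nt upstream with the most reads lay on chromosome 7, 53997897 to 53998318 (minus strand). It had 1198 and 746 reads and a usage of 72.1% (69.9 to 74.3) and 70.4% (67.6 to 73.2), more than its A=1 neighbour in both libraries. The second of these, on chromosome 8 (13159435 to 13165845, plus strand), had 296 and 416 reads and a usage of only 5.29% and 5.81%. At the 5′ splice site, the member 4 nt downstream on chromosome 9, 21807537 to 21807842 (plus strand), had 190 and 303 reads, a usage of 25.5% and 21.9%. The first of those 4 nt upstream, on chromosome 11 (58195886 to 58196253, plus strand), had 118 and 151 reads, a usage of only 0.0849% and 0.120%. Intervals here and below are exact binomial intervals and cover counting error only.

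Members that share both ends join the 5′ end of one A=1 junction with the 3′ end of another, in a pairing that is itself tagged A=0. All 1284 had C=1, and their median length was 16265 nt, against 1098 nt for A=1 junctions. The number of A=1 junctions lying wholly within each member was counted. Whether these belong to the same transcript as the member was not tested. Exactly 2 lay within 429 members (33.4%), 3 to 5 within 267, 6 to 20 within 407 and more than 20 within 133.

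In 423 members the 2 A=1 junctions within left a single exon between them, the arrangement of exon skipping. The exon had a median length of 116 nt. Of the 397 exons of no more than 300 nt, 159 (40.1%) had a length that is a multiple of 3, against 58.6% of the 1171 such exons skipped by an A=1 junction. Skipping was mostly the minor form, with a median share of 10.7% in R1 and 9.56% in R2 when the member is set against the mean of both A=1 junctions beside the exon. It exceeded 50% in both libraries at 38 members and stayed under 10% in both at 193. For A=1 junctions that skip an exon the medians were 73.8% and 75.9%.

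The A=1 introns at the ends of the longest pairings were often alike in length. For each member the strongest A=1 intron at its 5′ splice site and that at its 3′ splice site were compared in length. These are different introns, and in 364 of 1284 members (28.3%) the shorter had at least 95% of the length of the longer. By span, this was so for 8 of 204 members under 2000 nt (3.92%), 27 of 331 from there to 10000 nt (8.16%), 137 of 394 to 50000 nt (34.8%) and 192 of 355 from 50000 nt (54.1%). In 93 of those 355 the lengths were equal to the base. The 364 had a median of 61.5 reads against 28 for the other 920, and held 52.6% of the reads of all 1284. They were unevenly placed. The megabases from 34000001 and from 35000001 on chromosome 17 held 35 and 22 of them, and that from 138000001 on chromosome 7 held 24. How often any 2 A=1 introns are alike in length was not measured.

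**Figure D3:**
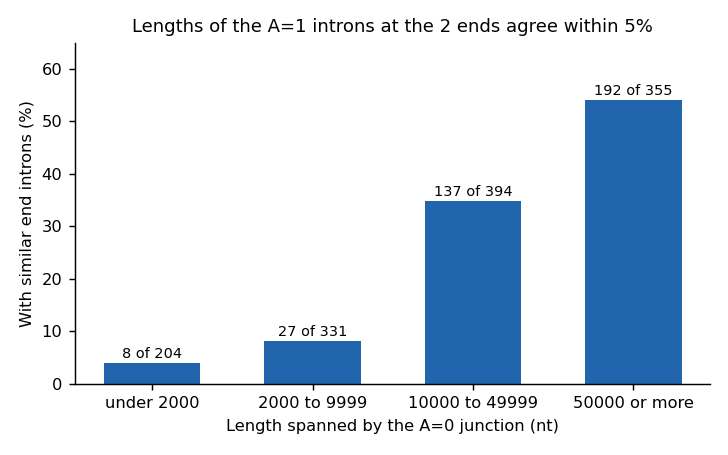
Percent of A=0 junctions with both ends shared (vertical axis) whose end introns have similar lengths, by the length the junction spans (horizontal axis, nt). Numbers above the bars give the members with similar introns of all in the bin; the share is lowest under 2000 nt (8 of 204) and highest from 50000 nt (192 of 355).

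The pairings with the most reads show the pattern one by one. On chromosome 11, 32184129 to 32197079 (plus strand), introns of 134 nt stood at both ends, and R1 held 1915 reads and R2 12774. This was the largest difference among the 3 with the most reads. On chromosome 7, 26257093 to 26314768 (minus strand), the introns had 1724 and 1733 nt, with 7587 reads in R1 and 5227 in R2. On chromosome 3, 94501027 to 94741129 (plus strand), introns of 200 nt stood at both ends of a span holding 33 A=1 junctions, with 6329 and 4969 reads. Of the 8 pairings with the most reads, 6 had end introns of similar length. The exceptions were 106497975 to 106501562 on chromosome 7 (minus strand, 4524 and 3662 reads), with introns of 3417 and 1185 nt, and 44310467 to 44375701 on chromosome 19 (plus strand, 3872 and 3491 reads), with 2399 and 1397 nt.

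Other members came in pairs that place an exon inside an A=1 intron, one joining the intron's 5′ splice site to a new 3′ one, the other a new 5′ splice site to the intron's 3′ one. There were 236 such exons, and 192 of them had no more than 300 nt, formed by 361 members. Their median length was 98.5 nt, with a range of 18 to 298, and 87 (45.3%) were a multiple of 3. Inclusion, as the mean of both flanking members over that mean plus the reads of the whole intron, had a median of 12.2% in R1 and 13.8% in R2. The median difference between the libraries was 2.24 percentage points, and 29 exons were included in more than 50% in both.

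The exons with the most reads, chosen after their values were seen, had values close to each other in R1 and R2. An exon of 193 nt on chromosome 5 (33612091 to 33612283, minus strand) was included at 54.2% in R1 and 53.6% in R2. These values average 2 unequal sides. The flanking member at lower positions had 364 and 218 reads, the other 2264 and 1187, beside 1109 and 609 for the whole intron. An exon of 45 nt on chromosome 10 (127928776 to 127928820, minus strand) reached 87.3% and 84.2%, since the A=1 junction over it had only 51 and 36 reads. On chromosome 12 an exon of 86 nt (17774020 to 17774105, plus strand) had 43.2% and 39.7%. Its flanking members were also unequal, with 575 and 567 reads on one side and 256 and 227 on the other. The one of 186 nt on chromosome 19 (45065663 to 45065848, plus strand) had 15.3% and 12.7%.

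With C=1 and no shared end there were 1622 members, of median length 1217 nt. Most (1238, or 76.3%) overlapped no A=1 junction on either strand. Another 140 overlapped one on the opposite strand only, and 244 overlapped one on the same strand. Those without overlap had a median of 36 reads, and those opposite an A=1 junction 22.5. The member with the most reads lay on chromosome 14, 37915878 to 37920559 (minus strand), with 4013 in R1 and 4036 in R2. The next were on chromosome 7, 148888698 to 148890069 (1391 and 1578), and on chromosome 17, 23965946 to 23966049 (1731 and 964).

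Some of these junctions lay in series along 1 strand. Joining the 1378 without overlap on their own strand where one begins within 1000 nt after another ends, or where they share an end, gave 868 groups. Of these, 646 held a single junction and 102 held 3 or more, with 492 junctions in all. The largest group had 41 junctions on the minus strand of chromosome X (47918145 to 47965881), with 977 reads in R1 and 1016 in R2 and from 10 to 302 per junction. There were 20 on the plus strand of chromosome 6 from 40728755 to 40776842 (1859 and 1795 reads), and another 20 from 40780929 to 40807705 (1316 and 1108). A group of 12 lay on chromosome 3 from 85775347 to 85888289 (2055 and 1667).

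C=0 members were more often very short or very long than C=1 members, though most lay between. Under 70 nt were 206 of 2005, against 19 of the 6678 with C=1, and 465 (23.2%) had at least 50000 nt, against 744 (11.1%). A=1 junctions reached 50000 nt in 1.09% and were under 70 nt in 0.108%. The 5 shortest members named by the rule all had C=0 and 31 nt, among them 1 on chromosome 7 (29626017 to 29626047) with 128 reads in R1 and 129 in R2. The longest spanned 1026017 nt on chromosome 5 (94707355 to 95733371, plus strand) with 19 and 5 reads. It shared its start, and the counts of 19 and 5, with the third longest (708770 nt). Among C=0 members under 150 nt, 206 of 522 (39.5%) had a length that is a multiple of 3, beside 36.5% of 649 with C=1 and 31.6% of 12738 A=1 junctions. The order was not the same under 70 nt, with 38.8% of 206 C=0 members, 36.8% of 19 with C=1 and 53.4% of 103 A=1 junctions. From 70 to 149 nt the shares were 39.9%, 36.5% and 31.4%.

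**Figure D4:**
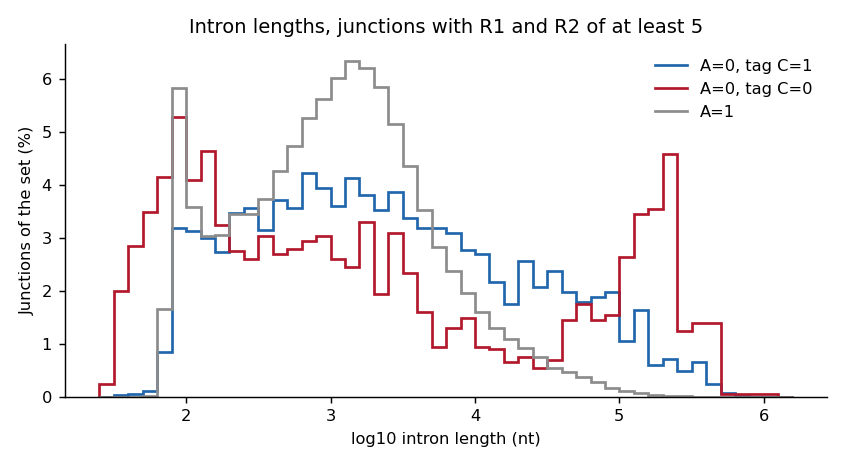
Percent of junctions of each set (vertical axis) by log10 of intron length in nt (horizontal axis) for A=0 junctions with C=1 (blue), with C=0 (red) and for A=1 junctions passing the same read minimum (grey). The C=0 line is above both others below a log10 length of 1.9, from 2 to 2.3 and again from 5 to 5.7. From 4.7 to 5 it lies below the C=1 line.

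C=0 members often lay in stacks with nearly the same ends. In 332 (16.6%) another C=0 member had both ends within 20 nt of its own, which was so for 199 C=1 members (2.98%). The largest stack held 12 on chromosome 16, beginning between 11144143 and 11144175 and ending between 11144195 and 11144225, with 887 reads in R1 and 1757 in R2. Beside the junction of 261632 nt on chromosome 4 named above, 6 others of 261630 to 261645 nt began within the same megabase, and all 7 together held 17471 and 31161 reads. Both ends within 10 nt of A=1 ends were found at 218 C=0 members (10.9%), and 1555 (77.6%) had neither end so close. Within 1000 nt these counts were 797 (39.8%) and 688 (34.3%). Of the C=0 members, 894 (44.6%) overlapped an A=1 junction on the same strand. The strands were uneven, with 58.0% of C=0 members on the plus strand against 49.8% of C=1 members and 50.5% of A=1 junctions. Among the few A=1 junctions with C=0 the imbalance ran the other way, with 59 of 230 (25.7%) on the plus strand.

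Contigs are the stretches that the deposited contig file lists as transcribed, drawn from the same series. Both bases next to the intron lay in a contig of the same strand for 90.5% of members and for 99.6% of A=1 junctions. By group the share went from 83.2% for members with both ends shared to 94.9% for those sharing the 3′ end only. For 2764 members (31.8%) a single contig ran across the whole intron, which was so for 20.7% of A=1 junctions. This depended on length: among members of 70 to 149 nt it was 86.4%, among those of 1000 to 4999 nt 14.8%, and from 10000 nt none of 2370. In the first 2 of these length classes the share of A=1 junctions was 65.2% and 3.89%.

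Members were found on all autosomes and chromosome X, and 4 lay on chromosome M, whose genes have no introns. Counts per 100 A=1 junctions ran from 6.33 on chromosome 2 to 14.2 on chromosome 17, where 759 members lay. Chromosome 7 had the most, 921 (10.6% of members against 8.08% of A=1 junctions). The mitochondrial ones all had C=0 and the plus strand. Of these, 3 overlapped between 6451 and 6518, with 51 and 26, 20 and 18, and 59 and 56 reads in R1 and R2. The other lay at 14428 to 14538 with 7 and 7.

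Some megabases were crowded. Members began in 1336 windows of 1000000 nt, with a median of 3 per window, and 25 windows held at least 40. The fullest, 40000001 to 41000000 on chromosome 6, had 132 members beside 55 A=1 junctions, 1 of the members with C=0 and none sharing both ends. The next, 34000001 to 35000000 on chromosome 17, had 108 beside 501, and 52 of these shared both ends. On chromosome 11, the window from 58000001 to 59000000 held 94, of which 76 had C=0. All 76 were on the plus strand, with 31389 reads in R1 and 11756 in R2. Most of these reads belonged to the gap of 36 nt named above (26342 and 10048). Of the 76, 39 were more than 2-fold higher in R1 and 1 in R2. Over all 106194 junctions with at least 5 reads in each, 6.59% and 7.44% were so. The 76 are not independent, as 9 of them formed a single stack with nearly the same ends. On chromosome 7, 138000001 to 139000000, 56 of 70 members shared both ends and none had C=0, with 28005 and 24463 reads.

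R1 and R2 were set side by side after scaling to the total junction reads. As the members had to reach 5 reads in each, this is a description with no test, and with 1 group of 2 libraries no difference has a replicate check. More than 2-fold apart were 1785 members (20.6%), where 14.0% of all 106194 junctions with at least 5 reads in each were so. Higher in R1 were 1069 (12.3%, background 6.59%) and higher in R2 716 (8.25%, background 7.44%). Members have fewer reads than A=1 junctions, so the shares were also taken by reads. From 10 to 19 reads the shares were 12.5% of members and 12.9% of A=1 junctions, where the minimum of 5 in each limits how far R1 and R2 can differ. From 20 to 49 reads they were 29.9% and 25.6%, from 50 to 99 reads 22.0% and 15.0%, and from 100 reads 13.2% and 5.62%. The directions differed. Higher in R2 were 3.96% of members and 6.88% of A=1 junctions from 10 to 19 reads, and 12.4% and 15.1% from 20 to 49. From 50 to 99 reads these were 9.42% and 8.43%, and from 100 reads 5.78% and 2.37%. Toward R1, members had the larger share in each of these read classes. By tag the shares of members more than 2-fold apart were 19.7% with C=1 and 23.4% with C=0.

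The widest differences were toward R2. At 136958543 to 136979161 on chromosome 4 (minus strand) there were 24 reads in R1 and 34856 in R2, a log2 ratio of -10.45 (95% interval -11.09 to -9.87). A pair of junctions on chromosome 6 (plus strand), 41252324 to 41411179 and 41254579 to 41307328, had 6 reads each in R1 and 5586 and 5460 in R2, with ratios of -9.80 and -9.77. At 23721722 to 23725193 on chromosome 5 the counts were 19 and 2255, and at 145689023 to 145694307 on chromosome 4 they were 24 and 1456. The first 4 of these 5 had a flanking base outside every contig of their strand. The pancreatic markers given above were also far apart between the libraries, and their part in these differences was not tested. In all, 21 of the 8683 members were more than 8-fold higher in R2 and 3 in R1, beside 71 and 13 of the 95202 A=1 junctions. Among all 106194 junctions with at least 5 reads in each, the counts were 102 and 29.

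Toward R1 the differences were smaller. The widest was a C=0 junction of 377015 nt on chromosome 7 (26206042 to 26583056, plus strand) with 322 and 18 reads, a log2 ratio of 4.22 (3.54 to 4.99). On chromosome 7, 52946606 to 52946781, a member sharing its 3′ end had 109 and 11 (3.37), and a C=0 junction on chromosome 16 (19063354 to 19085111, minus strand) had 205 and 21 (3.35). The remaining pair of the 5 widest had ratios of 2.97 (chromosome 16, 33794662 to 33799504) and 2.66 (chromosome 7, 20059872 to 20063657).

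**Figure D5:**
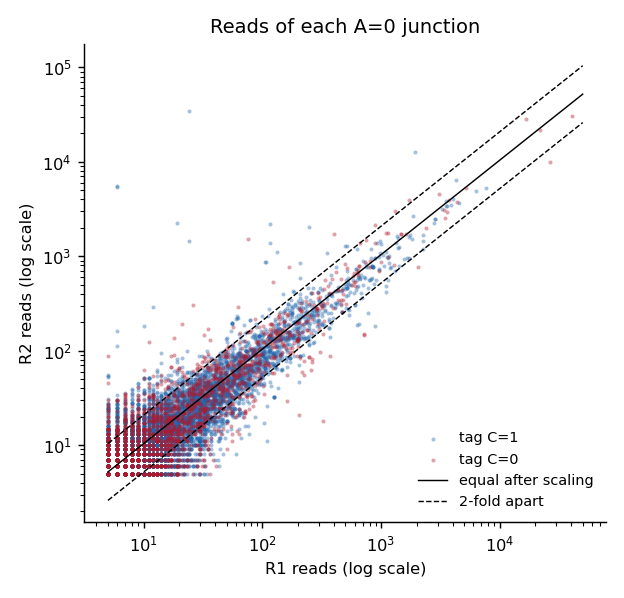
Reads of each of the 8683 A=0 junctions in R1 (horizontal axis) and R2 (vertical axis), both on log scales, with C=1 in blue and C=0 in red. The solid line marks equal scaled counts and the dashed lines a 2-fold difference; 1785 points lie outside the dashed lines, and the farthest, at 24 and 34856 reads, is above them.

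The read minimum cut through a continuous range. At least 1 library held exactly 5 reads for 1249 members (14.4%), 150 of them with 5 in both, such as 60409015 to 60409854 on chromosome 1. Another 1712 A=0 junctions had 4 reads in the lower library and were left out, such as 63152334 to 63160122 on chromosome 1 with 5 and 4. The median length was 1569 nt just inside and 1462.5 nt just outside, and C=1 was found at 75.7% and 73.9%.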

How the data were processed

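The authors' deposited junction file, on mm9, gives per junction a count of reads, which equals R1 + R2 in the junction's name for every row. The deposited contig file, also on mm9, gives a signal level per contig. Its positions alone were used. Deposited columns of unstated meaning, here treated as a score, and other text tags were not used as measurements. Per the labels and file notes used here, no aligner, junction caller or contig caller is named, nor whether reads with several placements were counted. The authors' deposited gene tables (mm10) give TPM, used for tissue markers only, and transcript tables were not used.

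Members were found by the stated rule. Each end was matched to A=1 junctions of any read count on the same strand. R1 and R2 were scaled by total junction reads (18301894 and 19057116). No test was made, since the counts chose the members. Intervals are exact 95% binomial (Clopper-Pearson) intervals, and they cover counting error only.

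Named junctions are the 10 with the most reads, the longest and shortest, the 5 widest ratios in each direction with at least 50 reads, the 3 highest of each class by shared ends, and those at the minimum. From these, only the ones that add to the text are printed. The members, rules and marker lists were chosen with earlier results of these data known. The ratio calls and the finding of moved ends, skipped exons and exons inside introns were tested on simulated data, and the other steps were not. All steps were run in Python 3.11.15 (pandas 2.3.3, scipy 1.17.1).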

Additional observations from a re-analysis of the deposited data

How the results depend on the processing

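Of 34 alternatives over 9 results, 11 stayed close to the value reported (shares and the median length within its 95% binomial interval, counts within 1.5 times) and 23 moved. The number of members was 4924 with a minimum of 10 reads and 13367 with 3, and 15012 to 17769 when 1 of R1 and R2 was left out of the rule. With a minimum of 10, 14.9% were more than 2-fold apart, the median length was 1978 nt, 34.9% of moved 3′ ends within 100 nt were at 3 nt, and 105 exons inside A=1 introns were found. A minimum of 3 gave a median length of 1634 nt. A pseudocount of 0.5 gave 19.1% more than 2-fold apart. Against A=1 junctions with at least 5 reads in each, 55.9% of members shared an end. Contigs of either strand held the flanks of 91.3%. Similar end introns from 50000 nt were 60.8% at 90% of the longer and 26.2% at equal length. Leaving out R1 or R2 gave 52.8% to 55.7% sharing an end, median lengths of 1351 to 1599 nt, 21.1% to 23.8% at 3 nt, 47.7% to 50.9% with similar introns, 38.7% to 40.6% of skipped exons in multiples of 3 and 308 to 343 exons. Alternatives for moved ends, similar introns, skipped exons and exons inside introns were chosen after seeing the data, as was leaving out only junctions wholly inside the 4 regions (8685 members). Ratios of R1 to R2 cannot be had with a library left out. No paired analysis was possible because there is 1 group. Depth limits single ratios: with 5 reads in each of R1 and R2, the 95% interval of the log2 ratio runs from -2.06 to 2.18.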
